A study of Homo sapiens with 9 samples.

Results

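SESN1, SESN2, SESN3, DDIT4, EIF4EBP1, DEPTOR, TSC1, TSC2, MTOR and RPTOR were followed in MDA-MB-231 cells after knockdown of ASAH1, the lysosomal acid ceramidase. The members were chosen by gene name, as genes of the mTORC1 growth pathway, with earlier results of these data known. All 10 were found among the 26485 genes of the deposited data. The sestrins, DDIT4, TSC1, TSC2 and DEPTOR are inhibitors of mTORC1. EIF4EBP1 is a repressor of translation that mTORC1 inactivates, and MTOR and RPTOR encode the kinase itself and its scaffold, so the set is described as brakes together with core subunits.

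mTORC1 is a kinase complex on the lysosome surface that drives protein synthesis when amino acids and growth factors are plentiful. Sestrins are induced under stress and hold back the complex through the GATOR and Rag GTPase branch, DDIT4 (REDD1) acts through the TSC1-TSC2 complex, which switches off the small GTPase RHEB, and DEPTOR binds the kinase directly. EIF4EBP1 is a substrate of the complex that blocks cap-dependent translation until it is phosphorylated. SESN2 and DDIT4 are well known as stress genes, with ATF4 among the factors that induce both, and FOXO factors are known regulators of sestrins.

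MDA-MB-231 is a long-established human line of triple-negative breast cancer. The cells stably expressed a nonspecific (NS) shRNA as control, ASAH1 shRNA #1 or ASAH1 shRNA #2, with 3 replicates each and 9 libraries in all, and all groups shared the same growth medium. The study labels the replicates as biological, the sources used here do not say whether the cells were separate infections, and the p-values measure the spread between these libraries. Reads on genes ran from 30989598 to 34867548 per library with NS shRNA, from 23806003 to 39791698 with shRNA #1 and from 35653318 to 49659106 with shRNA #2. The targeted ASAH1 fell from 4489 ± 45.4 normalized counts (SD, n = 3) to 1327 ± 51.9 with shRNA #1, and from 4852 ± 57.9 to 783 ± 22.6 in the data table of shRNA #2 (limma adjusted p = 9.49e-09 and 5.42e-10). The mesenchymal markers VIM, CD44 and AXL lay between 705 and 2074 CPM in the 9 libraries (CPM, reads per 1000000 reads on genes after TMM scaling) and EGFR between 83.9 and 279, whereas ESR1 and PGR had at most 2 reads in any library. ERBB2 was detected at 59.3 to 102 CPM, EPCAM at 20.5 to 38.4 and KRT5 at 1.80 to 6.48. Of the markers of other cell types, PTPRC had at most 8 reads, CD3E at most 3, VWF at most 14 and PECAM1 39 to 102, whereas the fibroblast markers ACTA2 and PDGFRB lay at 27.2 to 77.4 and 10.7 to 29.5 CPM.

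The upstream sequences of the genes on which the results turn are shown because ATF4, forkhead and MiT/TFE factors, all linked to this pathway, have short recognisable motifs. RefSeq promoter windows of build GRCh38.p14, 300 bases each, were found for 8 of the 10 members, in 11 windows. Shown are the bases before the annotated gene start, on the coding strand, of SESN2 (chr1:28259268-28259517, plus strand), the member that rose most, of DDIT4 (chr10:72273674-72273918, plus strand), the member with the highest level, and of TSC2 (chr16:2047735-2047966, plus strand). Capitals mark the motif matches.
SESN2: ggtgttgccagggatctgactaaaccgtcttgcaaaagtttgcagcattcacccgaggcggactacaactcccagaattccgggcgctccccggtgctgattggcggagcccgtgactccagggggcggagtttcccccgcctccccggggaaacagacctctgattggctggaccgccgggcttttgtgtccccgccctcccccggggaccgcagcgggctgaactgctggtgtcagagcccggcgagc
DDIT4: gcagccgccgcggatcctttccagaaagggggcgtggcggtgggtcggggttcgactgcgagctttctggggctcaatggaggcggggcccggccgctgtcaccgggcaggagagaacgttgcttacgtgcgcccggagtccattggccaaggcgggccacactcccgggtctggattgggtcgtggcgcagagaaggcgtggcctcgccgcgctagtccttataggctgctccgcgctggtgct
TSC2: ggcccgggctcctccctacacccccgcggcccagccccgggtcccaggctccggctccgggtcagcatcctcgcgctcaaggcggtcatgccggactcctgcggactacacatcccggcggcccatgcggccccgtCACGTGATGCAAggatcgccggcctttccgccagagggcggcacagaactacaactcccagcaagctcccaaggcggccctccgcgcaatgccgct
The letters TGATGNAA, the core of the composite element that ATF4 binds with C/EBP partners, CACGTG, the E-box of MiT/TFE and MYC factors, and GTAAACA, the forkhead core, were searched on both strands. In the 11 windows of members, 1 window of TSC2 held a match. There CACGTG began 114 bases before the RefSeq start site and TGATGCAA 110 bases before it, so that the matches overlap. Over all 35116 windows, TGATGNAA was in 3.62%, CACGTG in 7.26% and GTAAACA in 3.42%. The windows of SESN2 and DDIT4 held none of these letters, as did most windows for each motif. Sites outside the windows or with variant letters were not searched.

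Levels were compared between genes per kilobase of annotated exon, scaled to the same total of 1000000 in each library. On this scale DDIT4 was the highest member with NS shRNA at 482 ± 9.03 (SD, n = 3), and EIF4EBP1 followed at 339 ± 5.51. RPTOR stood at 42.8 ± 2.83, MTOR at 21.4 ± 3.37, TSC1 at 21.0 ± 1.70 and TSC2 at 17.3 ± 1.08. The stress brake DDIT4 and the translation repressor EIF4EBP1 thus stood far above RPTOR, MTOR, TSC1 and TSC2. SESN2 lay below these at 12.1 ± 1.16, SESN1 at 5.58 ± 0.582, SESN3 at 0.647 ± 0.0657 and DEPTOR at 0.579 ± 0.0756. The replicate ranges of MTOR and TSC1 overlapped, as did those of SESN3 and DEPTOR, so these neighbours in the order did not differ beyond their spread. Annotated exon length decides the middle of the order, because with the canonical transcript alone TSC2 rose to 30.7 ± 2.09 and stood above TSC1 at 23.8 ± 2.08 and MTOR at 18.2 ± 2.96.

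**Figure D1:**
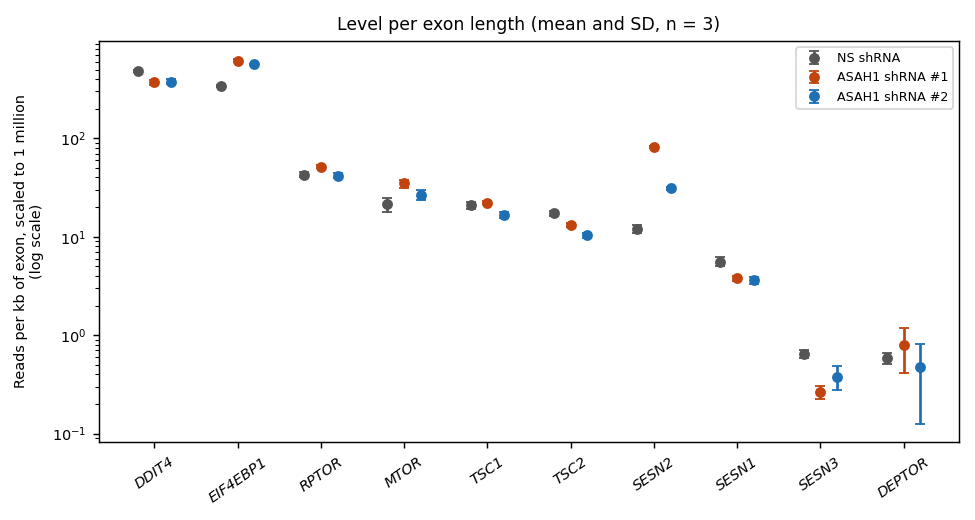
Level of each member per kilobase of annotated exon (total of 1000000 per library, log axis) with NS shRNA, ASAH1 shRNA #1 and ASAH1 shRNA #2. Points are means and bars SDs of 3 libraries. SESN2 moves from 12.1 with NS shRNA to 81.7 with shRNA #1 and 30.9 with shRNA #2, and EIF4EBP1 passes DDIT4 with both hairpins.

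With both hairpins the order at the top was exchanged. DDIT4 stood at 372 ± 23.5 with shRNA #1 and 377 ± 21.3 with shRNA #2 on the per-length scale, and EIF4EBP1 at 617 ± 22.9 and 565 ± 9.40, and in each group all 3 EIF4EBP1 values lay above all 3 DDIT4 values. SESN2 moved from below TSC2 to above RPTOR with shRNA #1, at 81.7 ± 1.20 against 51.4 ± 1.71. With shRNA #2 it reached 30.9 ± 1.16, between RPTOR at 41.8 ± 2.12 and MTOR at 26.8 ± 3.06. The ranges of SESN2 and MTOR overlapped, from 29.6 to 31.7 and from 23.6 to 29.7, so their order did not exceed the spread. These places rest on annotated exon length. The canonical transcript alone was applied only with NS shRNA, where SESN2 stood at 6.69 ± 0.681 and TSC2 at 30.7 ± 2.09. With the hairpins, the places of SESN2 among RPTOR, MTOR, TSC1 and TSC2 may therefore change with the length used.

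To find which members changed upon ASAH1 knockdown, each hairpin was compared with NS shRNA in its own data table by limma on log2(normalized count + 1), where a normalized count is the reads of a gene over a scaling factor for its library. The tables have separate size factors, so the same NS shRNA libraries have different normalized counts in each, and the comparisons share these libraries. With shRNA #1, 4 of the 10 members were higher (SESN2, EIF4EBP1, MTOR and RPTOR), 4 were lower (SESN1, SESN3, DDIT4 and TSC2) and 2 did not pass the test at an adjusted p of 0.05. Among all 14341 genes tested, 32.8% were higher and 33.3% lower, so the number of members called was near that of genes at large, and the size and direction of single members carry the description. With shRNA #2, 3 members were higher (SESN2, EIF4EBP1 and MTOR), 5 were lower (SESN1, SESN3, DDIT4, TSC1 and TSC2) and 2 did not pass, where 33.5% of 14250 genes were higher and 33.4% lower. The median log2 fold change of the members was 0.17 with shRNA #1 and -0.23 with shRNA #2, beside medians of 0.00 and 0.01 over all genes tested. The libraries of the hairpin and of NS shRNA did not overlap for 8 members in each comparison, beside 69.2% of all genes with shRNA #1 and 70% with shRNA #2. All 10 members passed the filter of a mean of at least 10 in both comparisons, DEPTOR only narrowly.

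**Figure D2:**
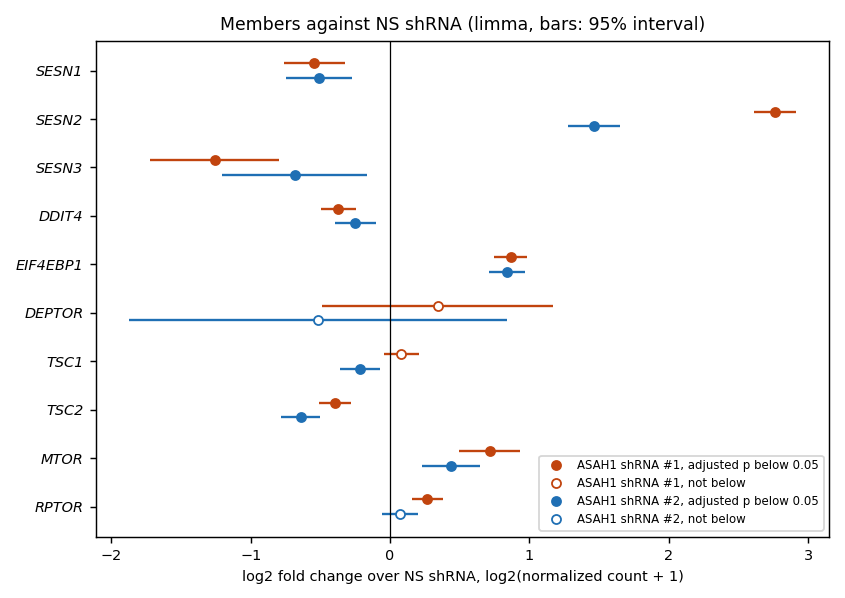
Log2 fold change of each member over NS shRNA, on the log2(normalized count + 1) scale, for ASAH1 shRNA #1 and #2, with 95% intervals from limma (n = 3 against 3) and filled points where the adjusted p is below 0.05. SESN2 lies farthest to the right, at 2.76 and 1.46, and the intervals of DEPTOR cross 0 with both hairpins.

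SESN2 rose most of the members, and the other sestrins fell. SESN2 lies on chromosome 1 (hg38, 28259518 to 28282491, plus strand, 10 exons). Its normalized counts were 284, 284 and 319 in the NS shRNA libraries and 2023, 1996 and 2002 in those of shRNA #1. In the other table they were 306, 308 and 343 with NS shRNA and 898, 824 and 925 with shRNA #2. The lowest knockdown library was thus above the highest control library in both comparisons, and the shRNA #1 libraries were nearly alike. The means differed 6.80-fold with shRNA #1, equal to 2.76 on the log2 scale (SE, the standard error, 0.07; limma adjusted p = 5.25e-09). With shRNA #2 they differed 2.76-fold, a log2 fold change of 1.46 (SE 0.08, limma adjusted p = 2.24e-07). As the RNA came from whole cultures, more SESN2 in each cell and more cells that express it cannot be told apart.

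SESN1, a second stress-responsive sestrin, lies on chromosome 6 (108984309 to 109094846, minus strand, 10 exons). It had 259, 311 and 292 normalized counts with NS shRNA and 189, 204 and 196 with shRNA #1. The table of shRNA #2 gave it 279, 338 and 315 with NS shRNA and 222, 225 and 204 with the hairpin. Every knockdown library was below every control library, by a log2 fold change of -0.54 with shRNA #1 (SE 0.10, limma adjusted p = 0.000855) and -0.51 with shRNA #2 (SE 0.11, limma adjusted p = 0.00149).

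SESN3, a sestrin known as a FOXO target, lies on chromosome 11 (95165513 to 95232541, minus strand, 10 exons) and was low, with 13 to 54 reads per library. Its normalized counts were 52.3, 43.2 and 49.9 with NS shRNA and 17.4, 22.5 and 19.2 with shRNA #1, a log2 fold change of -1.26 (SE 0.21, limma adjusted p = 0.000461). With the scaling of the second table, it had 56.5, 46.9 and 53.8 with NS shRNA and 23.7, 40.8 and 34.1 with the hairpin. The shRNA #2 libraries were below the controls but spread widely, and the log2 fold change was -0.68 (SE 0.23, limma adjusted p = 0.0240). That call was lost with DESeq2 (adjusted p = 0.0664) and when NS shRNA replicate 1, NS shRNA replicate 3 or shRNA #2 replicate 1 was left out, where the adjusted p rose to at most 0.0878.

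Summed per exon length, the 3 sestrins stood at 18.3 ± 1.52 (SD, n = 3) with NS shRNA, 85.8 ± 1.45 with shRNA #1 and 34.9 ± 0.902 with shRNA #2. SESN2 made up 65.96% of that sum with NS shRNA, 95.3% with shRNA #1 and 88.5% with shRNA #2. SESN1 went from 30.5% to 4.43% and 10.4%, and SESN2 was the main sestrin transcript in every group. These sums and shares rest on annotated exon length and change with the length used. With the canonical transcript alone, applied only with NS shRNA, SESN2 stood at 6.69 ± 0.681 and SESN1 at 3.97 ± 0.435.

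DDIT4, the other stress-induced brake, fell while SESN2 rose. It lies on chromosome 10 (72273919 to 72276036, plus strand, 3 exons). DDIT4 had 7540, 7182 and 6970 normalized counts with NS shRNA and 5319, 5500 and 5970 with shRNA #1. In the table of shRNA #2 it had 8136, 7796 and 7515 with NS shRNA and 6687, 6011 and 7047 with the hairpin. The groups did not overlap in either comparison, although the highest shRNA #2 library came near the lowest control. The log2 fold change was -0.37 with shRNA #1 (SE 0.06, limma adjusted p = 0.000275) and -0.25 with shRNA #2 (SE 0.07, limma adjusted p = 0.00656). DDIT4L (REDD2), its paralog and a far lower transcript, had 53.1 ± 9.44 normalized counts with NS shRNA and 21.7 ± 0.718 with shRNA #1, a log2 fold change of -1.24 (adjusted p = 0.000478 from limma). With shRNA #2 DDIT4L had 72.8 ± 9.35 beside 57.5 ± 10.4 with NS shRNA, the libraries overlapped and the test was not passed (log2 fold change 0.34, adjusted p = 0.131).

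**Figure D3:**
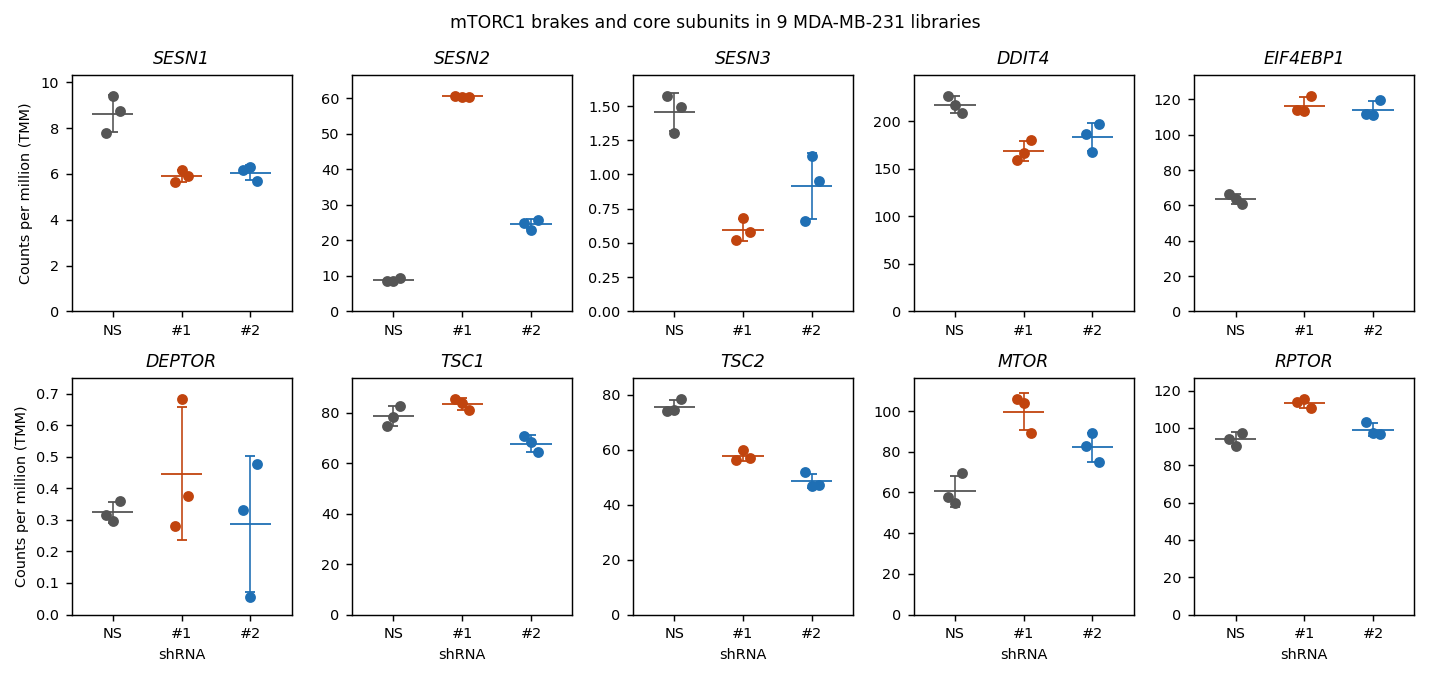
CPM (TMM scaling of recovered reads) of each member in the 9 libraries, by shRNA. Points are libraries, horizontal bars are means and vertical bars SDs of 3 libraries, and every axis starts at 0. SESN2 separates into 3 levels near 8.87, 60.5 and 24.6, and TSC1 with shRNA #1 overlaps NS shRNA.

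The TSC complex showed a lower TSC2 with both hairpins. TSC2, the subunit that acts as the GTPase activator of RHEB, lies on chromosome 16 (2047967 to 2089491, plus strand, 42 exons). It had 2464, 2467 and 2617 normalized counts with NS shRNA and 1873, 1970 and 1885 with shRNA #1, a log2 fold change of -0.40 (SE 0.05, limma adjusted p = 9.81e-05). The table of shRNA #2 gave it 2658, 2678 and 2821 with NS shRNA and 1857, 1682 and 1689 with the hairpin, a log2 fold change of -0.64 (SE 0.06, limma adjusted p = 7.72e-06). All knockdown libraries lay below all controls. PKD1 overlaps the end of TSC2 on the opposite strand, and the reads were counted by strand.

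TSC1, the partner that stabilises TSC2, lies on chromosome 9 (132891348 to 132946874, minus strand, 23 exons). It had 2484, 2592 and 2761 normalized counts with NS shRNA and 2844, 2765 and 2680 with shRNA #1. These groups overlapped and the test was not passed, with a log2 fold change of 0.08 (95% interval -0.04 to 0.21, adjusted p = 0.213 from limma). With the scaling of the second table, TSC1 had 2680, 2813 and 2976 with NS shRNA and 2535, 2452 and 2299 with the hairpin, and fell by 0.22 on the log2 scale (SE 0.06, limma adjusted p = 0.0117).

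Of the core subunits, MTOR rose with both hairpins and RPTOR with shRNA #1. MTOR, the kinase, lies on chromosome 1 (11106535 to 11262556, minus strand, 58 exons). It had 1927, 1813 and 2316 normalized counts with NS shRNA and 3529, 3427 and 2959 with shRNA #1, a log2 fold change of 0.71 (SE 0.10, limma adjusted p = 0.000141). In the table of shRNA #2 it had 2079, 1968 and 2497 with NS shRNA and 2966, 3196 and 2675 with the hairpin, a log2 fold change of 0.44 (SE 0.10, limma adjusted p = 0.00203). The groups did not overlap, but within each of them the libraries spread more for MTOR than for the TSC genes or RPTOR.

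RPTOR, the scaffold that recruits substrates, lies on chromosome 17 (80544819 to 80966371, plus strand, 34 exons). It had 3135, 2981 and 3254 normalized counts with NS shRNA and 3795, 3804 and 3666 with shRNA #1, a log2 fold change of 0.27 (SE 0.05, limma adjusted p = 0.00111). The table of shRNA #2 gave it 3382, 3236 and 3508 with NS shRNA and 3696, 3494 and 3454 with the hairpin. These libraries overlapped, and the log2 fold change of 0.07 (95% interval -0.06 to 0.20) did not pass the test (adjusted p = 0.289).

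DEPTOR, the inhibitory subunit, lies on chromosome 8 (119873717 to 120050918, plus strand, 9 exons) and was barely detected, with 2 to 28 reads per library. It had 10, 10 and 13 reads with NS shRNA, 7, 28 and 13 with shRNA #1, and 11, 2 and 22 with shRNA #2. The groups overlapped in both comparisons. The log2 fold change was 0.34 with shRNA #1 (95% interval -0.49 to 1.17, adjusted p = 0.435 from limma) and -0.52 with shRNA #2 (95% interval -1.87 to 0.84, adjusted p = 0.475), so that neither a rise nor a fall could be shown at this depth. Leaving out 1 library moved the value with shRNA #1 between 0.012, without shRNA #1 replicate 2, and 0.60, and the value with shRNA #2 was 0.28 without shRNA #2 replicate 2.

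EIF4EBP1 rose to almost the same extent with both hairpins. It lies on chromosome 8 (38030534 to 38060365, plus strand, 3 exons). EIF4EBP1 had 2202, 2112 and 2035 normalized counts with NS shRNA and 3800, 3732 and 4039 with shRNA #1, a log2 fold change of 0.87 (SE 0.05, limma adjusted p = 8.97e-07). With the scaling of the second table, it had 2376, 2293 and 2194 with NS shRNA and 4010, 3989 and 4284 with the hairpin, a log2 fold change of 0.84 (SE 0.06, limma adjusted p = 7.54e-07). Its paralog EIF4EBP2, which represses translation in the same way, went in the opposite direction, by -0.49 with shRNA #1 (adjusted p = 3.23e-05) and -0.76 with shRNA #2 (adjusted p = 2.35e-06). Per exon length, EIF4EBP1 made up 80.5% of the 4E-BP transcripts with NS shRNA, 91.2% with shRNA #1 and 92.6% with shRNA #2, and the 4E-BP sum went from 422 ± 5.87 (SD, n = 3) to 677 ± 22.0 and 610 ± 7.86. The sum and the shares rest on annotated exon length. With the canonical transcript alone, EIF4EBP1 stood at 200 ± 2.22 with NS shRNA. EIF4E, the cap-binding protein that these repressors hold, was higher by 0.24 with shRNA #1 (adjusted p = 0.0192) and 0.58 with shRNA #2 (adjusted p = 0.000121).

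To ask where the hairpins differed from each other, the whole reads behind the normalized counts were recovered and all 9 libraries were fitted together by edgeR's quasi-likelihood test. In that comparison of shRNA #2 with shRNA #1, 5 members were lower (SESN2, TSC1, TSC2, MTOR and RPTOR), 1 was higher (SESN3) and 4 did not pass, beside 32.1% of 14714 genes lower and 31.1% higher. These are 4730 and 4581 genes, and upper quartile normalization gave 5607 lower and 3744 higher. The median over the members was -0.23 on the log2 scale, and over all genes -0.01. ASAH1 itself was lower with shRNA #2 by a log2 ratio of -0.88 (edgeR adjusted p = 6.82e-08).

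SESN2 showed the largest hairpin difference of the members. It was higher with shRNA #1, and ASAH1 was lower with shRNA #2. Each ASAH1 level came from a single hairpin, so the level and the hairpin cannot be told apart. SESN2 had 60.6, 60.5 and 60.4 CPM with shRNA #1 and 25.0, 23.0 and 25.8 with shRNA #2, beside 8.53, 8.56 and 9.53 with NS shRNA. Each hairpin thus formed its own level, and shRNA #2 stood against shRNA #1 at a log2 ratio of -1.30 (95% interval -1.45 to -1.15 in the limma fit, adjusted p = 1.32e-08 from edgeR).

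The TSC and core subunits differed less. TSC1 had 83.3 ± 2.24 CPM (SD, n = 3) with shRNA #1 and 67.7 ± 3.24 with shRNA #2, a log2 ratio of -0.31 (edgeR adjusted p = 0.000546). TSC2 had 57.6 ± 1.89 and 48.6 ± 2.69, a log2 ratio of -0.25 (adjusted p = 0.00168). RPTOR had 113 ± 2.41 and 99.0 ± 3.48, a log2 ratio of -0.20 (adjusted p = 0.00405). All libraries of shRNA #2 lay below those of shRNA #1 for these 3 genes. For MTOR the groups nearly touched, with 89.3 in the lowest library of shRNA #1 and 89.2 in the highest of shRNA #2. Its log2 ratio of -0.28 (edgeR adjusted p = 0.0231) lost the call without shRNA #1 replicate 1, shRNA #1 replicate 2, shRNA #2 replicate 1 or shRNA #2 replicate 3, with an adjusted p between 0.0582 and 0.0893.

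SESN3 had 0.521, 0.682 and 0.580 CPM with shRNA #1 and 0.661, 1.14 and 0.953 with shRNA #2. The groups overlapped, and the log2 ratio of 0.61 passed narrowly (edgeR adjusted p = 0.0486). DESeq2 gave 0.62 with an adjusted p of 0.109, and leaving out any 1 of the 9 libraries other than shRNA #2 replicate 1 also lost the call. EIF4EBP1, SESN1 and DDIT4 did not pass. Their 95% intervals for the log2 ratio, from the limma fit of all libraries, ran from -0.14 to 0.09 for EIF4EBP1, from -0.18 to 0.24 for SESN1 and from -0.02 to 0.26 for DDIT4, which bounds the size of a hairpin difference in these genes. Without shRNA #2 replicate 2 DDIT4 passed, at 0.18 (adjusted p = 0.0315). For DEPTOR the interval was wide, from -2.15 to 0.44, and leaving out 1 library moved the edgeR ratio between -1.31 and -0.18.

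Other genes of the pathway were then counted by role, with 95 genes in 10 lists, of which 93 were tested. With shRNA #1, 32 were higher and 34 lower, with a median log2 fold change of -0.04. With shRNA #2, 34 were higher and 35 lower, with a median of 0.01. The pooled shares are near those of all genes, with 32.8% higher and 33.3% lower for shRNA #1, and 33.5% and 33.4% for shRNA #2. Single lists are small and were drawn up with earlier results of these data known. They are given by role and by their leading members, and their counts are description only.

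**Figure D4:**
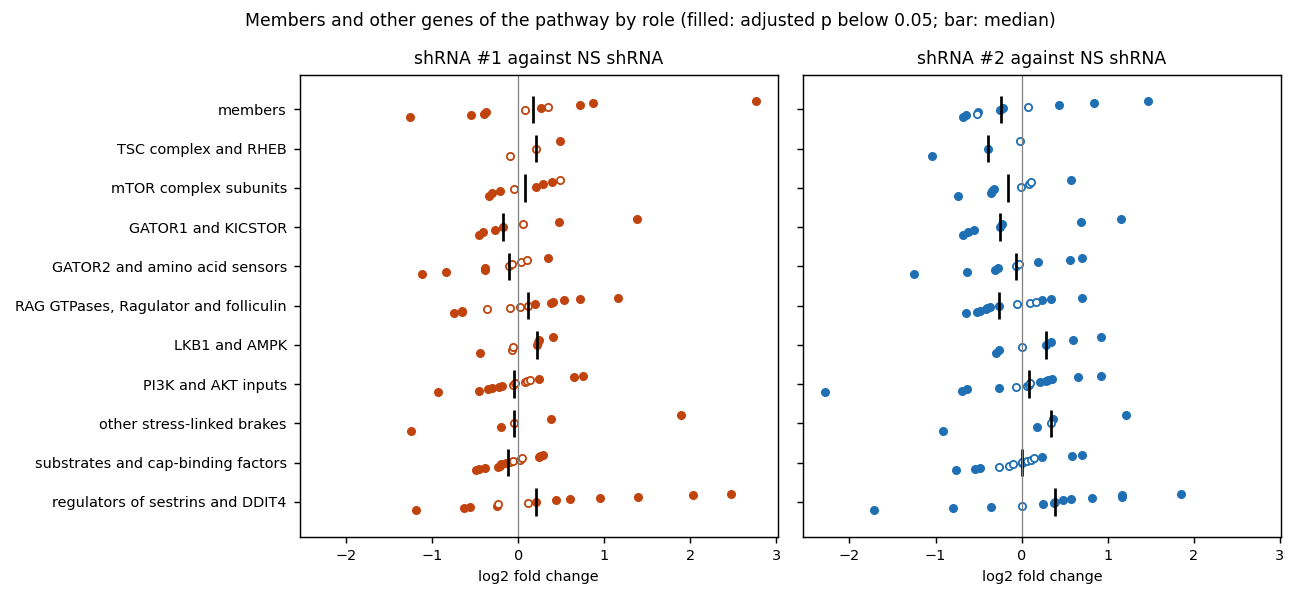
Log2 fold change over NS shRNA of the 10 members and of the other pathway genes by role, for ASAH1 shRNA #1 on the left and #2 on the right. Each point is a gene, filled where the adjusted p from limma is below 0.05, and the black bar is the median of the list. The list of regulators holds genes far to the right with both hairpins, among them DDIT3 at 2.47 and 1.16, and it also counts CDKN1A, which is not a known regulator of the members.

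A list of 13 genes held regulators of sestrins and DDIT4 and stress genes that often move with them. With shRNA #1, 7 were higher and 4 lower, beside 32.8% and 33.3% of all genes. With shRNA #2, 9 were higher and 3 lower, beside 33.5% and 33.4%. As the list was chosen with earlier results of these data known, these counts are not a result about regulators. ATF4, the stress factor that induces SESN2 and DDIT4, rose by 0.60 with shRNA #1 (adjusted p = 7.13e-06 from limma) and 0.82 with shRNA #2 (adjusted p = 1.20e-06). DDIT3 (CHOP), a factor downstream of ATF4, went from 451 ± 14.6 to 2509 ± 91.0 normalized counts with shRNA #1 and from 488 ± 16.5 to 1095 ± 72.5 with shRNA #2, log2 fold changes of 2.47 and 1.16. Like SESN2, DDIT3 stayed lower under shRNA #2 (log2 ratio to shRNA #1 of -1.31, edgeR adjusted p = 1.42e-08), whereas ATF4 was higher by 0.21 (adjusted p = 0.00829). CDKN1A (p21), an inhibitor of cyclin-dependent kinases that is counted in this list but is not known to regulate sestrins or DDIT4, rose by 2.03 and 1.85 on the log2 scale. TP63 fell most in this list, by 1.19 and 1.71, from 44.4 ± 4.87 normalized counts with NS shRNA to 20.1 ± 9.33 with shRNA #1. TP73 did not pass with shRNA #1 and was higher by 0.39 with shRNA #2 (adjusted p = 0.0215).

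A list of 5 genes labelled other stress-linked brakes held DDIT4L, TRIB3, SH3BP4, GRB10 and PDCD4, not all of which act on mTORC1 itself. Of these, 2 rose and 2 fell with shRNA #1, and 3 rose and 1 fell with shRNA #2. TRIB3, a pseudokinase that binds AKT and is a target of ATF4 and CHOP, rose from 1337 ± 57.0 to 4973 ± 281 normalized counts with shRNA #1 and from 1446 ± 65.9 to 3377 ± 350 with shRNA #2, log2 fold changes of 1.89 and 1.22 (adjusted p = 1.43e-08 and 5.00e-07 from limma). PDCD4, which holds back the helicase EIF4A, fell by 0.20 and 0.91.

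In the branch through which sestrins act, the 7 genes of GATOR1 and KICSTOR, which switch off the Rag GTPases and anchor that switch to the lysosome, had 2 higher and 4 lower with shRNA #1, and 2 higher and 5 lower with shRNA #2. C12orf66 (KICS2), a KICSTOR subunit, rose by 1.38 and 1.15, whereas the GATOR1 genes NPRL3 and DEPDC5 fell by 0.45 and 0.27 with shRNA #1 and by 0.23 and 0.68 with shRNA #2. ITFG2, another KICSTOR subunit, was at 0.06 with shRNA #1 (adjusted p = 0.578) and fell by 0.62 with shRNA #2.

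GATOR2 is the complex that sestrins bind, and with the other amino acid sensors it gave 9 genes, of which 1 rose and 4 fell with shRNA #1, and 3 rose and 4 fell with shRNA #2. SEH1L, a GATOR2 subunit shared with the nuclear pore, rose by 0.35 and 0.70. The arginine sensor gene GATSL3 (CASTOR1) fell by 0.39 and 1.25, and GATSL2 (CASTOR2) by 1.12 and 0.31, where the close copies of GATSL2 in the genome leave its counts uncertain. C7orf60 (SAMTOR), the sensor of S-adenosylmethionine, fell by 0.83 with shRNA #1 and rose by 0.56 with shRNA #2, a hairpin difference of 1.39 (edgeR adjusted p = 4.33e-08).

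Among 13 genes of the Rag GTPases, Ragulator and folliculin, 6 rose and 3 fell with shRNA #1, and 3 rose and 7 fell with shRNA #2. RRAGC rose with both hairpins, from 3363 ± 150 to 7513 ± 142 normalized counts with shRNA #1 and from 3635 ± 159 to 5894 ± 94.6 with shRNA #2, log2 fold changes of 1.16 and 0.70. RRAGA, its partner in the Rag heterodimer, fell by 0.75 and 0.36, and the Ragulator gene LAMTOR5 by 0.65 with each. FLCN, a GTPase activator for RRAGC and RRAGD, rose by 0.72 with shRNA #1 and stood at -0.05 with shRNA #2 (adjusted p = 0.508 from limma), a hairpin difference of -0.78 (edgeR adjusted p = 3.53e-07). LAMTOR2 rose by 0.34 with shRNA #2 and did not pass with shRNA #1.

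RHEB, the GTPase that the TSC complex switches off, did not pass with either hairpin, with 6616 ± 328 normalized counts against 6212 ± 211 (log2 fold change -0.09, adjusted p = 0.149) and 7151 ± 347 against 7062 ± 506 (-0.02, adjusted p = 0.807 from limma). TBC1D7, the third TSC subunit, rose by 0.49 with shRNA #1 and fell by 0.39 with shRNA #2, a hairpin difference of -0.87 (edgeR adjusted p = 0.000324). RHEBL1, a paralog of RHEB, fell by 1.05 with shRNA #2 (adjusted p = 0.00245).

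The 8 other subunits and assembly factors of mTOR complexes had 3 higher and 3 lower with shRNA #1, and 1 higher and 4 lower with shRNA #2. MLST8, which binds the kinase domain in both complexes, stood at -0.05 with shRNA #1 (adjusted p = 0.393 from limma) and fell by 0.74 with shRNA #2. AKT1S1 (PRAS40), an inhibitory subunit of mTORC1, rose by 0.39 with shRNA #1 and stood at 0.11 with shRNA #2 (adjusted p = 0.0921). In mTORC2, RICTOR rose by 0.29 and 0.58 and PRR5L fell by 0.34 with each hairpin.

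Upstream, 7 genes of LKB1 and AMPK, the energy sensor that activates TSC2, could be tested, of which 4 rose and 1 fell with shRNA #1, and 4 rose and 2 fell with shRNA #2. PRKAA2, a catalytic subunit, rose by 0.22 and 0.93, PRKAB2 by 0.40 and 0.34, and PRKAG2 fell by 0.44 with shRNA #1 and stood at 0.01 with shRNA #2 (adjusted p = 0.898 from limma). PRKAB1 rose by 0.24 with shRNA #1 and fell by 0.26 with shRNA #2, and PRKAG1 fell by 0.30 with shRNA #2. The 14 genes of PI3K and AKT inputs had 3 higher and 6 lower with shRNA #1, and 6 higher and 4 lower with shRNA #2. PIK3R1, the regulatory subunit of PI3K, rose by 0.76 and 0.92, and PHLPP1, a phosphatase of AKT, fell by 0.93 and 0.27. PIK3IP1, an inhibitor of PI3K, had 216 ± 25.2 normalized counts with NS shRNA and 227 ± 6.61 with shRNA #1 (adjusted p = 0.519), but fell from 233 ± 26.8 to 46.8 ± 0.986 with shRNA #2, a log2 fold change of -2.29 (adjusted p = 2.67e-07 from limma).

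Downstream, 14 of 15 substrates and cap-binding factors were tested, of which 3 rose and 7 fell with shRNA #1, and 3 rose and 3 fell with shRNA #2. RPS6KB1 (S6K1), the other main substrate of mTORC1, rose by 0.25 with shRNA #1 (adjusted p = 0.0114) and stood at 0.01 with shRNA #2 (adjusted p = 0.944 from limma). TFEB, a lysosome regulator that mTORC1 keeps out of the nucleus, fell by 0.24 with shRNA #1 and rose by 0.70 with shRNA #2, and TFE3 rose by 0.29 with shRNA #1. ULK1, the autophagy kinase that mTORC1 inhibits, fell by 0.54 with shRNA #2 and did not pass with shRNA #1. These values are transcript levels, and phosphorylation of the substrates was not measured here.

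Finally, the genes whose level followed SESN2, DDIT4 and SESN3 most closely across the 9 libraries were listed by Pearson's r on log2 CPM, as a description without a test, since the libraries fall into 3 groups and r mostly reflects the group levels. For SESN2 they were TOMM34 (r = 0.998), ARHGEF2 (0.997), IL1A (0.997), OSGIN1 (0.995) and LURAP1L (0.995). For DDIT4 they were CENPB (r = 0.992), H2AFX (0.991), ALKBH7 (0.988), PRMT2 (0.988) and PIH1D1 (0.988). For SESN3 they were TSPYL1 (r = 0.979), UBE2T (0.976), CWC27 (0.974), ZNF211 (0.971) and FBXL5 (0.966), lower than for SESN2 and DDIT4. SESN3 itself had 13 to 54 reads per library, below the mean of 100 reads asked of the listed genes. The effect of this on r was not tested.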

How the data were processed

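Libraries were prepared from oligo-dT purified RNA with dUTP strand marking (the series' design text names ribosomal depletion instead) and sequenced on an Illumina HiSeq. According to the submitters' processing notes and the methods, reads were cleaned by the authors with Trimmomatic 0.36, mapped with STAR 2.7.1a (hg38), counted by strand on UCSC genes with HTSeq and tested for each hairpin with DESeq2 1.28. Another methods paragraph names RSEM and edgeR. The authors deposited, for 6 libraries per table, a normalized signal (reads over a size factor per library). Their log2 fold changes with standard errors, Wald scores and p-values were also deposited and were not used. 0 per-sample columns were unmatched, and 28 gene symbols that had turned into dates were restored from the other table.

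Every signal gave whole reads (100% within 0.01), and the NS shRNA reads differed 0 times between tables. limma 3.58.1 with an intensity trend (R 4.3.3) was fitted on log2(signal + 1) for genes with a mean of at least 10, two-sided, with Benjamini-Hochberg adjustment. edgeR 4.0.16 compared the hairpins, and DESeq2 1.42.0 served as an alternative, beside pseudocounts of 0.1 and 5, other filters, upper quartile scaling, 1 fit of all 9 libraries, a replicate block and leaving out each library. The scripts were tested on simulated data. Positions and exon lengths came from GENCODE on hg38 (87.45% of genes, 95.27% of reads), promoters from RefSeq. The members and lists were chosen with earlier results of these data known. Genes named from a list are those with the largest rise and fall among those called in each comparison, plus ATF4, DDIT3, TRIB3, CDKN1A, AKT1S1, MLST8, RHEB, RPS6KB1, EIF4E, EIF4EBP2 and DDIT4L, and the 5 genes nearest in pattern to SESN2, DDIT4 and SESN3 among those with a mean of at least 100 reads. An item that this rule also covers is not reported here. Python 3.11.15, pandas 2.3.3 and matplotlib 3.10.9 were used.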

Additional observations from a re-analysis of the deposited data

Results flagged for a closer look

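The effect of knockdown on 6 members differed between the hairpins by edgeR's test of the difference itself, given as the log2 ratio of shRNA #2 to shRNA #1. It was -1.30 for SESN2, 0.61 for SESN3, -0.31 for TSC1, -0.25 for TSC2, -0.28 for MTOR and -0.20 for RPTOR. In the same test 32.1% of all 14714 genes were lower and 31.1% higher, so the number of members that differed was near that of genes at large. SESN3 passed narrowly (edgeR adjusted p = 0.0486) with overlapping groups, and DESeq2 did not call it. The call of MTOR was lost when some single libraries were left out. The targeted gene ASAH1 was itself lower with shRNA #2, at -0.88. The part of the remaining ASAH1 level in these differences was not tested. Each level came from a single hairpin, so the level and the hairpin cannot be told apart. No group had enough libraries to look for a library far from the others.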

How the results depend on the processing

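Across the other settings tried, 647 values kept their direction and their side of the threshold, 21 lost a call, 1 gained one, 11 counts moved by over 1.5 times and 5 values changed sign, none of them past the threshold. With DESeq2, SESN3 with shRNA #2 against NS shRNA was -0.66 (adjusted p = 0.0664). Between the hairpins SESN3 was 0.62 with DESeq2, 0.61 without a filter and 0.53 with upper quartile normalization, and the count of members higher became 0 in each. Upper quartile normalization also turned SESN1 from 0.022 to -0.061, where the median of all genes shifted in the same direction, from -0.01 to -0.09. The cause of these changes was not tested.

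The replicate numbers did not pair the libraries, because the deviations of libraries with the same number correlated between -0.32 and -0.098, and no library correlated best with its own number. Some libraries with different numbers correlated positively. NS shRNA replicate 1 did so with replicate 3 of shRNA #1 and #2 (0.27 and 0.20), and NS shRNA replicate 3 with their replicate 2 (0.18 and 0.26). Whether such libraries share a batch was not tested. With the replicate block TSC1 with shRNA #2 was -0.22 (adjusted p = 0.0572), SESN3 between the hairpins was 0.61 (adjusted p = 0.0714) and the count of members higher there became 0. Genes higher went from 4700 to 4120 with shRNA #1 and from 4780 to 4246 with shRNA #2.

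Leaving out 1 library at a time gave a range from -0.85 to -0.47 for SESN3 and from -0.79 to 0.28 for DEPTOR with shRNA #2 against NS shRNA. Between the hairpins the ranges were 0.44 to 0.78 for SESN3, -0.36 to -0.22 for MTOR, 0.065 to 0.18 for DDIT4, -0.0058 to 0.071 for SESN1 and -0.064 to 0.0049 for EIF4EBP1, and the count of members higher was 0 to 1. SESN1 was -0.0040 without shRNA #1 replicate 1. DEPTOR with shRNA #2 fell under the filter without shRNA #2 replicate 3 and gave no value there, and neither DEPTOR nor SESN3 reached a mean of at least 50.

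Levels per length moved with the canonical transcript alone, an alternative chosen after seeing the data, to 324 for DDIT4, 200.2 for EIF4EBP1, 35.8 for RPTOR, 23.8 for TSC1, 30.7 for TSC2, 6.69 for SESN2, 3.97 for SESN1, 0.397 for SESN3 and 0.329 for DEPTOR. The low reads of SESN3 and DEPTOR limit what their comparisons can show, and 3 libraries a group limit all of them.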
